A study of Mus musculus with 4 samples.

Results

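The far end of mouse chromosome 2 carries a dense array of C2H2 zinc-finger genes. Its expression was measured in neural stem and progenitor cells with a combined knockdown of Phf21b, Zfp7 and Zfp57 and in control cells. The members were all protein-coding GENCODE M21 genes lying wholly in an interval of 2948984 bases, from 175.13 to 178.08 Mb of chromosome 2 in GRCm38, which begins with Gm14399 and ends with Zfp931. They numbered 43, of 34866 gene identifiers in the count table, with 21 on the plus strand and 22 on the minus strand. Gm2007 had no row in the count table, and its 3 annotated transcripts are identical to those of Gm11007. Of the 42 with a row, 6 were at 0 in every library, 5 summed to less than 20 counts over the 4 libraries and 31 reached 20 or more. The filter on low counts kept 30 of the 31 for testing, and only Zfp966, with a summed count of 32, was left out.

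Cells came from the dorsal telencephalon of E11.5 wild-type mouse embryos, the region that forms the cerebral cortex, and were grown with basic fibroblast growth factor as floating spheres. RNA was sequenced on day 5. In the sh3F group, 3 lentiviral vectors were given together, each at a multiplicity of infection of 10, with short hairpin RNAs against Phf21b (a PHD finger protein gene), Zfp7 and Zfp57 (zinc-finger protein genes). In the shControl group, 1 vector with a control hairpin was given at 30, so that the summed dose of virus was 30 in both groups. Each group had 2 libraries, and all 4 share 1 batch label. The hairpins against Zfp7 and Zfp57 sat in a pLV backbone, whereas the control hairpin and the hairpin against Phf21b sat in a CS backbone. Knockdown, number of vectors and backbone therefore cannot be told apart. No label says that the replicates were separate cultures, so a p-value measures the spread between these libraries, which may be technical.

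C2H2 zinc fingers are small zinc-binding folds that usually read DNA, and a protein with an array of them can recognise a long site. Many mammalian C2H2 proteins also carry a KRAB domain, which recruits TRIM28 (KAP1). TRIM28 brings in the histone H3 lysine methyltransferase SETDB1 and HP1 proteins, and KRAB zinc-finger proteins are known above all for silencing transposable elements in early development. Zfp57 itself encodes such a protein, which keeps DNA methylation at imprinted regions. KRAB zinc-finger genes lie in clusters that grew by tandem duplication, so neighbours can be nearly identical in sequence.

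The coding sequences matched the name of the cluster for most members. Among the 42 members with a readable M21 coding sequence, 34 encoded at least 5 C2H2 finger patterns, with 5 to 25 fingers and a median of 13. A loose pattern of the KRAB A box, adopted after a stricter pattern found no member, matched 39 of the 42, and 33 had both features. Among genes elsewhere in the genome with at least 5 fingers, the loose pattern was found in 46.2%, against 33 of the 34 such members. The stricter pattern was found in 31.5% of those genes and in 0 members. The loose pattern was adopted after the members had been searched, so the comparison is in part set by that choice. The largest array, 25 fingers, was in Gm14295. Gm14435, Gm14288, Gm14440 and Gm14327 encoded short proteins of 64 to 88 residues with the KRAB pattern and no finger. 2210418O10Rik and Gm14296 encoded 134 residues with 1 finger.

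The finger-coding sequence shows how alike the members are. The set below is shown because this likeness limits how far single members can be told apart. A finger and its linker form a unit of 78 bases, and the most common unit was identical in 17 of the 36 members that have a unit of this length. It is given first, from Gm14434, the most abundant member. The others are each member's closest unit, with capitals at the bases that differ from the common one. The sequences are from the GENCODE M21 coding sequences on GRCm38.
Gm14434, chr2:176474385-176474462, minus strand: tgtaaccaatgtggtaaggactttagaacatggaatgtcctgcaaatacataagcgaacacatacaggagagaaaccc
Gm14322, chr2:177769708-177769785, plus strand: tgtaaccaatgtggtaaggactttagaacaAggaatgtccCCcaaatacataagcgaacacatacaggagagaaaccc
Zfp931, chr2:178068202-178068279, minus strand: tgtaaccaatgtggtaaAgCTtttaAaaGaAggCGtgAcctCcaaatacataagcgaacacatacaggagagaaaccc
Zfp968, chr2:175383039-175383116, plus strand: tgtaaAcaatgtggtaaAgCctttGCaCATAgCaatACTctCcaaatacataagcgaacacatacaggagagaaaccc
Zfp971, chr2:178033846-178033923, plus strand: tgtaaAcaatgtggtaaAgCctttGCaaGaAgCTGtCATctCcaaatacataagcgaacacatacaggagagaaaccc
Gm14403, chr2:177509247-177509324, plus strand: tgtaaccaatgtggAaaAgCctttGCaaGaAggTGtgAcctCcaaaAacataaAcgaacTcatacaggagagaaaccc
Zfp965, chr2:175479834-175479911, plus strand: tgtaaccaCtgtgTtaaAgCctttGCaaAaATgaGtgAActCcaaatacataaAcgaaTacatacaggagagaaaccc
Gm14322 differed from the common unit at 3 bases, Zfp931 at 10, Zfp968, Zfp971 and Gm14403 at 14 each and Zfp965 at 15. The differences lie mostly in the middle of the unit, and the linker at the right-hand end is the same in all 7 sequences. Units were searched by a protein pattern that ends in this linker, and each member's closest unit was kept. The likeness of the right-hand end was thus in part set by the search.

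The promoters were alike as well. The RefSeq promoter table (GRCm38.p6) held 29 of the members, each as 250 bases before and 50 after the start site. In 28 of the 29 a window of 110 bases could be aligned on ccaatcaga, which was present in 1.87% of the 26996 promoters of other genes. This stretch was not among the motifs set beforehand, so the contrast may in part be set by its choice. Its bases are the same in all 28 windows because the windows were aligned on it. Identity between members over this window had a median of 97.3% in 378 pairs, with a range of 85.5% to 100%, and there were 15 distinct windows. Promoters are shown of members that passed the test as lower in sh3F, marked as fell. Others are of abundant members and of the member with the most positive fold change. The abundant members Gm14434 and Zfp931 were lower too, at 75.5% and 74.6% of shControl, but did not pass. Sequences run 5′ to 3′ on the gene's strand, with capitals at bases that differ from the majority base of the 28 windows.
Zfp965 (fell), chr2:175469887-175469996, plus strand: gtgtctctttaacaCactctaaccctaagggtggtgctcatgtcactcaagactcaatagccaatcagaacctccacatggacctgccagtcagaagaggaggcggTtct
Zfp971 (fell), chr2:178023146-178023255, plus strand: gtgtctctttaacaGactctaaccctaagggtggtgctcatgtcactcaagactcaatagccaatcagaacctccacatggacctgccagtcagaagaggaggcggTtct
Gm14325 (fell), chr2:177840363-177840472, minus strand: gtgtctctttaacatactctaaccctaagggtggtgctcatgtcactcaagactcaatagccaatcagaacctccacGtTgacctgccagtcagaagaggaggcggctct
Gm14326 (fell), chr2:177957334-177957443, minus strand: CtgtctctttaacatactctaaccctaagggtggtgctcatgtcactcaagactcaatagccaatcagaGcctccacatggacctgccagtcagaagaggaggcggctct
Gm14434 (most abundant), chr2:176486796-176486905, minus strand: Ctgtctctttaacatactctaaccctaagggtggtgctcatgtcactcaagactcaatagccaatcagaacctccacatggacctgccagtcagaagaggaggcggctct
Zfp931 (abundant), chr2:178078484-178078593, minus strand: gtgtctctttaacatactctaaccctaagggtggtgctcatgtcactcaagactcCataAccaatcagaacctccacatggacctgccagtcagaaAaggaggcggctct
Gm14403 (highest fold change), chr2:177498082-177498191, plus strand: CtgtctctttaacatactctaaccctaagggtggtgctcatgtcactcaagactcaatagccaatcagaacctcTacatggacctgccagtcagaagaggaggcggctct
Gm4631, Gm4724, Gm2007, Gm2026 and Gm14308 have the window of Gm14434, letter for letter. Zfp968, Zfp966, Zfp967, Zfp973 and Gm14295 have that of Zfp965. Within the set of Zfp965, Zfp965 and Zfp968 passed the test as lower and Zfp973 and Gm14295 did not. Their log2 fold changes were -0.74 (Zfp965), -0.75 (Zfp968), -0.73 (Zfp973) and -0.50 (Gm14295), all below 0. Zfp973 rests on 6 to 24 counts per library. For this set the threshold therefore does not show that members with the same window behaved differently. In the set of Gm14434 the log2 fold changes were more mixed, from -0.65 (Gm2026) to 0.18 (Gm14308). Between them were -0.40 (Gm14434), -0.37 (Gm4724) and 0.01 (Gm4631), and none of these passed. Gm14308 rests on 12 to 41 counts per library. Whether members with the same window differ in fold change was not tested. The pentamer CCAAT, searched on both strands after the promoters had been read, was in 28 of 29 member promoters and in 37.9% of 27025 promoters in the table. It is part of ccaatcaga, so these are the same 28 promoters as above, and the count is not a second result. The hexamer TGCCGC, the core of the motif that ZFP57 binds when methylated, was found on neither strand in any of the 29 member promoters, against 11.6% of all promoters. That says only that these letters are not in those promoter sequences.

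Because of this likeness, the level of a single member depends on how the quantifier shared out reads. Of the stretches of 31 bases (31-mers) in a tested member's transcripts, a median of 91.6% also occurred in another gene, against 1.76% over all tested protein-coding genes. The share was above 90% in 27 of the 43 members and 100% in 11. It was 50% or less in only 3 tested members, Gm14443 (33.6%), Gm14391 (36.0%) and Zfp931 (39.8%). A total of 20 members have at least 1 transcript identical to a transcript of another member. Linking members of which at least 80% of the 31-mers occur in another member gave 23 groups of similar sequence, 10 with several members and 13 with 1 member. The largest group held 9 members, namely Gm14434, Gm4724, Gm14305, Gm14410, Gm4631, Gm2026, Gm14308, Gm11007 and Gm2007. Sums over a group, or over all members, do not depend on how reads are divided within it. Gm14444, Gm14387 and Gm14393, which lie just outside the interval on chromosome 2, shared the most 31-mers with the members. Together these 3 had 1 to 5 counts per library. Other genes outside the interval share 31-mers too, led by BC048559 on chromosome 10 with 590. The share of a member's 31-mers found outside the interval was, for example, 5.79% for Gm14391, 17.5% for Gm14434 and 32.8% for Gm14325. Sums can still depend on how reads were divided with such genes, and that was not tested.

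**Figure D1:**
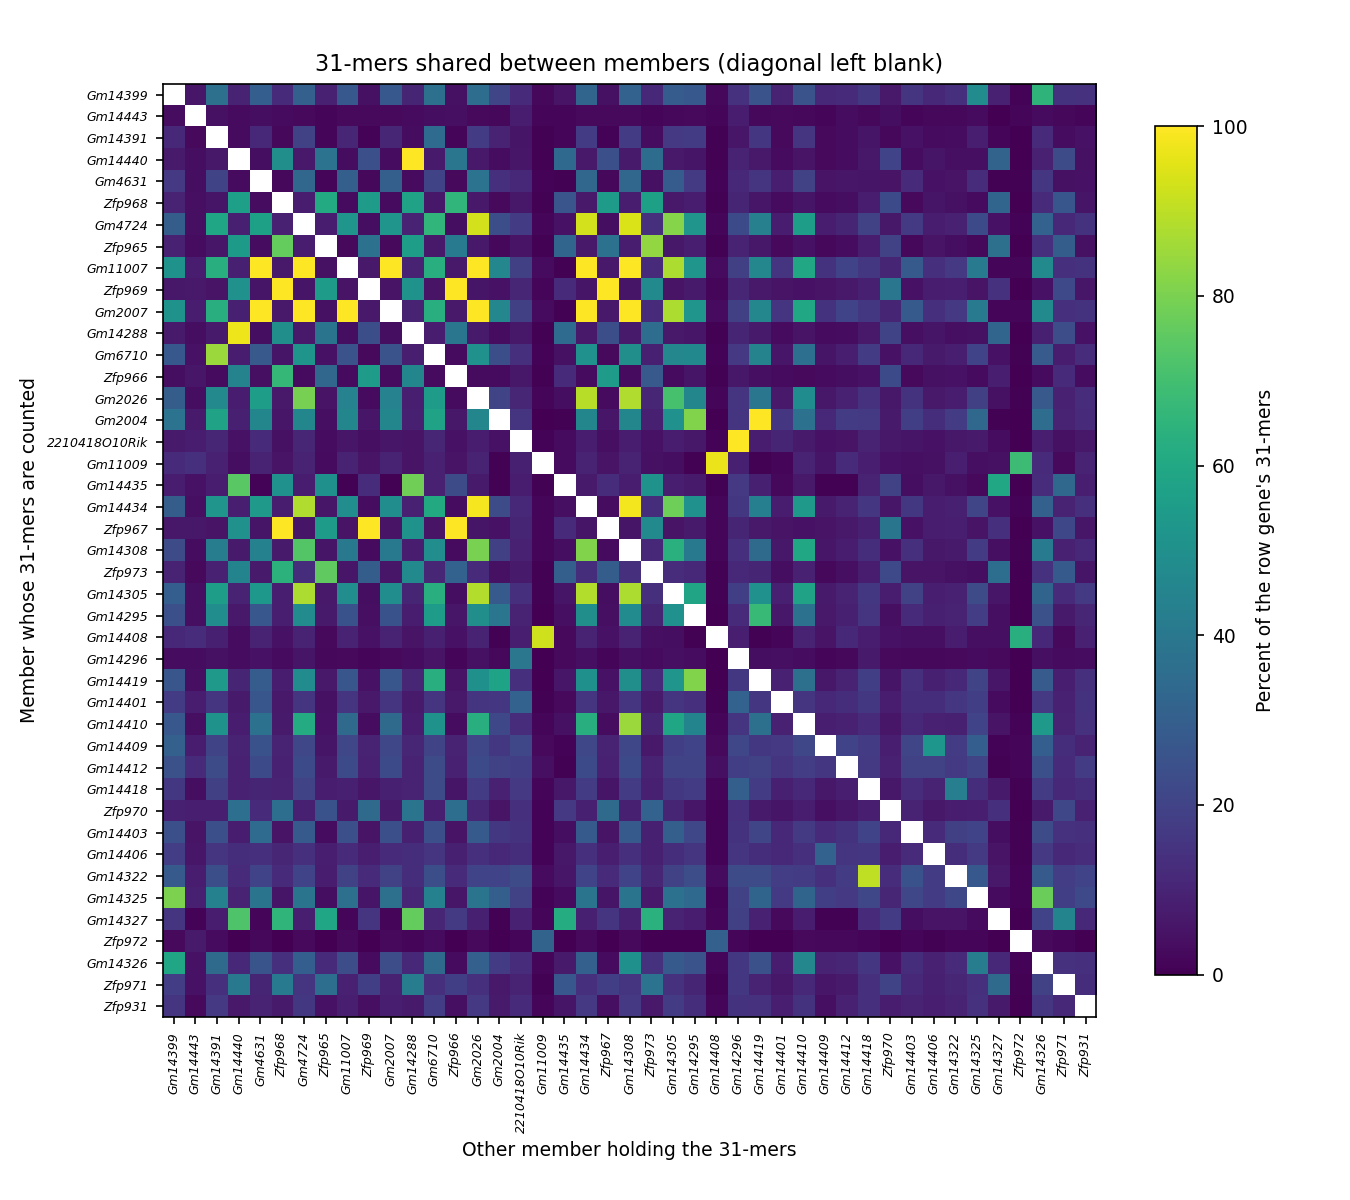
Share of each member's 31-mers (rows) that also occur in each other member (columns), in order along chromosome 2, on a color scale of 0% to 100%. The bright block of rows and columns that recurs along the axis is the group of 9 members around Gm14434, whereas the rows of Gm14443 and Zfp931 are dark.

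The expressed members spanned a wide range of levels, and a few dominated. Levels are given in CPM, counts per 1000000 of a library total scaled by its TMM factor, and per kilobase of exon where members are compared with each other. Gm14434 was the highest, at 62.3 CPM per kb in sh3F and 82.5 CPM per kb in shControl. Gm4724 followed with 54.2 in sh3F and 70.0 CPM per kb in shControl. Gm14305 had 40.1 in sh3F and 49.0 CPM per kb in shControl, and Gm14410 had 39.6 in sh3F and 48.8 CPM per kb in shControl. These 4 members of the largest group of similar sequence held 57.2% of all counts on the cluster. The next were Gm14325, at 19.4 in sh3F and 29.3 CPM per kb in shControl, and Zfp931, at 20.3 in sh3F and 27.2 CPM per kb in shControl. The lowest tested member was Gm14443, at 0.121 in sh3F and 0.141 CPM per kb in shControl. The ratio of the highest to the lowest tested member, by the mean over libraries, was 554. The 6 members at 0 were Gm14440, Gm11007, Gm11009, Gm14408, Gm14409 and Gm14412, and a count of 0 in the shallowest library allows up to 0.225 CPM (3 counts, counting error only). All 31-mers of Gm11007, Gm14440 and Gm11009 occur in another gene, so for these 3 a count of 0 cannot be read as absence and that limit does not apply.

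**Figure D2:**
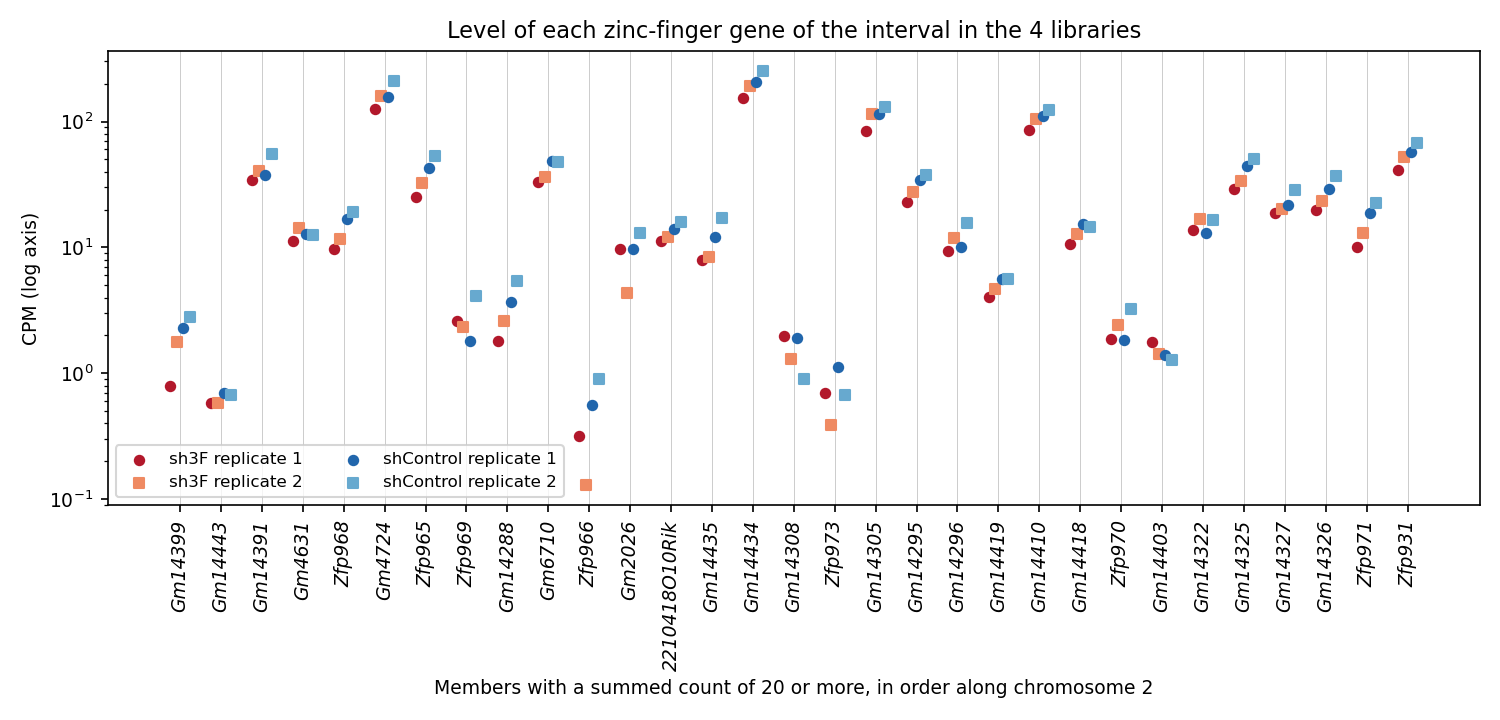
CPM (log axis) of the 31 members with a summed count of 20 or more in each of the 4 libraries, in order along chromosome 2; circles are replicate 1 and squares replicate 2, red for sh3F and blue for shControl. Gm14434, Gm4724, Gm14305 and Gm14410 stand above the others, and for most members the red points lie under the blue ones. Points at 0 cannot be drawn on a log axis, and no member shown is at 0.

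Summed over the cluster, the level was lower in sh3F. The members together had 785 and 962 CPM in sh3F replicates 1 and 2, against 1050 and 1265 CPM in shControl replicates 1 and 2. The mean was 873 ± 125 CPM in sh3F and 1158 ± 152 CPM in shControl (SD, n = 2 each), so that sh3F stood at 75.5% of shControl, a log2 ratio of -0.41. Both sh3F libraries were below both shControl libraries, but not by much on the inner side, since sh3F replicate 2 reached 91.6% of shControl replicate 1. Against the other control library, sh3F replicate 1 stood at 62.1%. The spread within groups was nearly as wide: replicate 1 stood at 81.6% of replicate 2 in sh3F and at 83.0% in shControl. On the log2 scale the pooled SD within groups was 0.20. The sum rested on 14743 and 14781 counts in sh3F, against 22633 and 16860 in shControl, so counting error is small beside the difference between replicates.

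**Figure D3:**
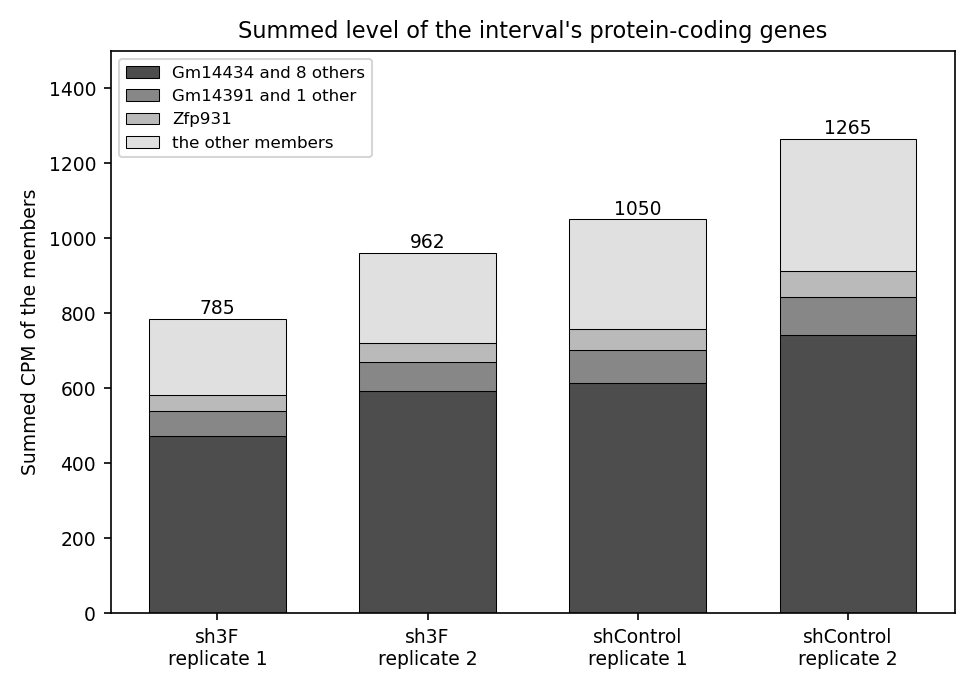
Summed CPM of all members in each library, stacked by group of similar sequence (the Gm14434 group of 9, the Gm14391 group of 2, Zfp931, and the rest). The bars reach 785 and 962 CPM in the sh3F libraries and 1050 and 1265 CPM in the shControl libraries, and each of the 4 parts is lowest in sh3F replicate 1.

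Large parts of the cluster were each lower in sum, whereas small groups of similar sequence varied more. The 6 members that passed the test stood at 61.7% of shControl together, and the other members at 78.0%. That split was made on the outcome in these same libraries, so the lower value of the 6 follows from the choice. The 4 most abundant members together stood at 78.2%, and all members but these 4 at 71.9%. The 3 members that share 50% or less of their 31-mers, which hold 9.53% of the counts, stood at 77.3%, at 76.3 and 93.2 CPM in sh3F against 95.7 and 124 CPM in shControl. Adding the pseudogenes and non-coding genes of the interval left the value at 75.6%. Those 37 genes held only 0.397% as many counts as the members. Among the 16 groups of similar sequence above 1 CPM in shControl, the ratio ran from 48.7% (the Gm14288 group) to 119.5% (Gm14403), both of them under 6 CPM in every library.

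Among single members, 6 of the 30 tested passed as lower in sh3F, or 20.0%, and 0 passed as higher, with edgeR's quasi-likelihood test and a Benjamini-Hochberg adjusted p under 0.05. Over all 14050 tested genes the same rule called 0.826% lower and 0.541% higher, 192 genes or 1.37% in all. At an unadjusted p under 0.05, 17 of the 30 members were lower and 0 higher, against 6.85% of all tested genes lower. Under DESeq2 0 members were higher as well. The median log2 fold change of the 30 members was -0.36, which is 77.7% of the control level, and that of all tested genes -0.01. The log2 fold change was below 0 in 26 of 30 members and in 51.1% of all genes. Both sh3F libraries were below both shControl libraries in 18 of the 30 members, or 60.0%, against 21.7% of all genes. They were above in 1 member, Gm14403, against 19.6% of all genes, and the groups overlapped in the other 11. The members share reads and promoters, so these counts are not counts of independent genes.

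The 6 members that fell were Zfp965, Zfp971, Gm14435, Zfp968, Gm14325 and Gm14326, and they lie in different places along the interval. Zfp965, with 6 fingers, had 25.2 and 32.3 CPM in sh3F, against 42.8 and 53.6 CPM in shControl. The groups did not overlap, and the fold change was -0.74 ± 0.15 on the log2 scale (SE), with an adjusted p of 0.000993 from edgeR. Nearly all of its 31-mers (97.9%) occur in another gene, most of them in Zfp973, a copy with 0.692 and 0.390 CPM in sh3F and 1.11 and 0.675 CPM in shControl. Summed over Zfp965 and Zfp973, sh3F stood at 59.6% of shControl.

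Zfp971, with 12 fingers, has fewer shared 31-mers (69.5%) than the other members that fell. It had 10.1 and 12.9 CPM in sh3F, against 18.9 and 22.4 CPM in shControl. That is 55.8% of the control level, with a 95% interval of 43.9% to 70.9% and an adjusted p of 0.00168 from edgeR. Both sh3F libraries lay well under the lower control library.

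Zfp968, with 11 fingers, had 9.74 and 11.6 CPM in sh3F, against 16.7 and 19.2 CPM in shControl, a log2 fold change of -0.75 ± 0.18 (SE) with an adjusted p of 0.00889 from edgeR. Its near copies were low. Zfp969 had 2.61 and 2.34 CPM in sh3F and 1.81 and 4.13 CPM in shControl, with overlapping groups. Zfp966 and Zfp967 stayed under 1 CPM in every library. The 4 together had 12.7 and 14.1 CPM in sh3F against 19.2 and 24.3 CPM in shControl, or 61.6% of the control level.

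Gm14325 and Gm14326, near the distal end with 14 and 15 fingers, both fell. Between them lie Gm14327, which did not pass the test, and Zfp972, which was not tested. Gm14325 had 29.1 and 33.5 CPM in sh3F, against 44.4 and 50.3 CPM in shControl. Its log2 fold change was -0.60 ± 0.14 (SE), with an adjusted p of 0.0117 from edgeR. Gm14326 had 19.9 and 23.5 CPM in sh3F, against 28.9 and 36.8 CPM in shControl, a log2 fold change of -0.59 ± 0.16 (SE) and an adjusted p of 0.027 from edgeR. In both, the higher sh3F library stayed under the lower control library. Gm14399, at the opposite end of the interval, resembles them in sequence, with 0.799 and 1.76 CPM in sh3F and 2.27 and 2.78 CPM in shControl. It did not pass the test (adjusted p of 0.246, edgeR).

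Of the 4 short members that encode the KRAB pattern without fingers, 1 passed the test, 2 did not and Gm14440 was at 0 in every library. Gm14435 had 7.99 and 8.33 CPM in sh3F, against 12.2 and 17.0 CPM in shControl. It fell to 56.3% of the control level, with a 95% interval of 43.4% to 73.2% and an adjusted p of 0.0068 from edgeR. Gm14288 had the lowest fold change of all, -1.03 ± 0.30 on the log2 scale (SE), with 1.81 and 2.60 CPM in sh3F and 3.67 and 5.40 CPM in shControl. With an adjusted p of 0.0606 from edgeR it did not pass, and all of its 31-mers occur in another gene. Gm14327 had 18.6 and 20.3 CPM in sh3F and 21.9 and 28.4 CPM in shControl, and did not pass either. The pair with 1 finger, 2210418O10Rik and Gm14296, summed to 20.6 and 23.9 CPM in sh3F and 24.1 and 31.4 CPM in shControl, or 80.04% of the control level.

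The 4 most abundant members had smaller fold changes than the 6 that fell, and none of the 4 passed the test. The 6 were picked by that test, so this difference was in part set by the choice. The log2 fold changes of the 4 ran from -0.40 (Gm14434) to -0.29 (Gm14305), around the members' median of -0.36. Gm14434 had 153 and 192 CPM in sh3F, against 208 and 250 CPM in shControl, so the groups did not overlap. Its fitted level was 75.5% of control, with a 95% interval of 62.2% to 91.7% and an adjusted p of 0.15 from edgeR. Gm4724 had 127 and 159 CPM in sh3F, against 157 and 212 CPM in shControl, with overlapping groups and an adjusted p of 0.217 from edgeR. Gm14305 had 84.7 and 116 CPM in sh3F and 115 and 129 CPM in shControl, also overlapping. Gm14410 had 85.2 and 105 CPM in sh3F and 110 and 124 CPM in shControl. The whole group of 9 summed to 473 and 591 CPM in sh3F, against 615 and 742 CPM in shControl, or 78.5% of the control level, without overlap.

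The less abundant members of that group gave mixed values. Gm4631 had 11.3 and 14.3 CPM in sh3F and 12.9 and 12.5 CPM in shControl, a level of 101% of control with a 95% interval of 78.7% to 129%. Gm2026 had 9.80 and 4.36 CPM in sh3F and 9.65 and 13.1 CPM in shControl. The low value in sh3F replicate 2 was less than that of replicate 1 by more than the difference between the group means. Gm14308 had 1.97 and 1.30 CPM in sh3F and 1.90 and 0.900 CPM in shControl. The sign of its log2 fold change, 0.18 ± 0.42 (SE), turned when either sh3F replicate 1 or shControl replicate 2 was left out.

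Zfp931, the last gene of the interval, and Gm14391 are the abundant members whose sequence is mostly their own. Zfp931 had 41.3 and 51.9 CPM in sh3F, against 57.1 and 68.0 CPM in shControl, without overlap. Its level was 74.6% of control, with a 95% interval of 61.5% to 90.6%, and it did not pass the test (adjusted p of 0.127, edgeR). Gm14391, with 16 fingers, had 34.4 and 40.7 CPM in sh3F and 37.9 and 54.9 CPM in shControl, so its groups overlapped. Its partner Gm6710 had 33.1 and 36.6 CPM in sh3F and 48.7 and 47.3 CPM in shControl. Together they stood at 76.6% of control. Gm14443, the member with the least shared sequence, had 0.586 and 0.586 CPM in sh3F and 0.696 and 0.675 CPM in shControl. It rests on 9 to 15 counts per library, and its 95% interval ran from 36.8% to 198% of control.

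Gm14295, the member with the most fingers, and its relatives Gm14419 and Gm2004 summed to 27.4 and 32.5 CPM in sh3F, against 39.8 and 43.7 CPM in shControl, or 71.8% of control. None of them passed the test. Gm14322 and Gm14418, of 8 fingers each, gave the highest sum relative to control among the expressed groups of several members: 24.3 and 29.7 CPM in sh3F and 28.3 and 31.2 CPM in shControl, or 90.8%, with overlap. Gm14322 itself had 13.7 and 16.9 CPM in sh3F and 13.1 and 16.7 CPM in shControl. Its fitted level was 103% of control, with a 95% interval of 81.3% to 131%.

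Gm14403 was the member with the highest fold change and the only tested one with both sh3F libraries above both control libraries. It had 1.76 and 1.43 CPM in sh3F and 1.39 and 1.28 CPM in shControl, on 17 to 33 counts per library. The log2 fold change of 0.26 ± 0.42 (SE) did not pass the test (adjusted p of 0.879, edgeR). Zfp970 had 1.86 and 2.41 CPM in sh3F and 1.86 and 3.23 CPM in shControl, with overlap. Of the members under 20 counts, Zfp972 had 1 and 12 counts in sh3F and 5 and 1 in shControl, and Gm2004, Zfp967, Gm14401 and Gm14406 had at most 3 in any library.

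**Figure D4:**
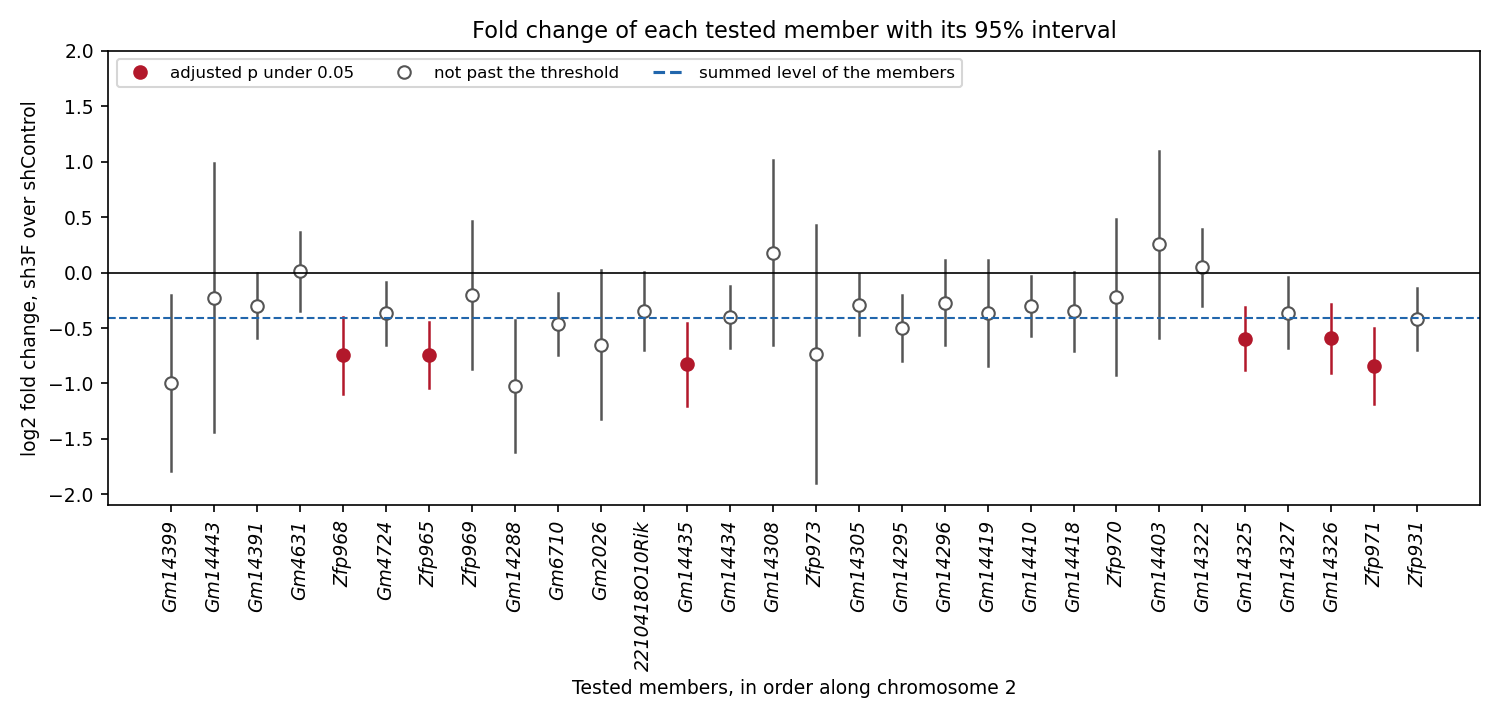
Log2 fold change, sh3F over shControl, of the 30 tested members in order along chromosome 2, with 95% intervals from the edgeR fit; filled red points passed the adjusted threshold, open points did not, and the dashed line is the log2 ratio of the summed level. The points run from -1.03 (Gm14288) to 0.26 (Gm14403), 26 lie below 0, and the intervals of 24 members include the dashed line.

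Whether the fold changes of the members differ from one another was not tested. The intervals do not model how reads were shared out among similar members. The 95% interval of 24 of the 30 members included the ratio of the summed level. It lay wholly below that ratio in Zfp965, Zfp971, Gm14435 and Gm14288, and wholly above it in Gm4631 and Gm14322. These members were picked out after their values were seen. The median log2 fold change was -0.47 for the 15 tested members on the plus strand and -0.35 for the 15 on the minus strand, with 4 and 2 of the calls. Across the 30 members the rank correlation of the fold change with position was 0.09, with the mean level -0.14 and with the share of 31-mers in another gene -0.25. These are descriptions, since the members share reads. Of the 16 groups of similar sequence above 1 CPM in shControl, 13 had both sh3F libraries below both control libraries. The exceptions were the Gm14322 group and Zfp970, which overlapped, and Gm14403.

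The libraries differed in the cluster's level within each group too, and in the same way. In sh3F, 24 of the 30 tested members were higher in replicate 2, with a median log2 difference of 0.26 over replicate 1. In shControl 23 of the 30 were higher in replicate 2, with a median of 0.25. Over all tested genes the median difference was -0.01 in both groups. The highest library was shControl replicate 2 for 22 of the 30 members, and the lowest was sh3F replicate 1 for 22. The cluster's level thus moved together across its members between libraries of the same group, by medians of 0.26 and 0.25, beside the median of -0.36 between the groups.

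Other features of the libraries moved with the cluster. The share of counts on mitochondrially encoded genes was 26.6% and 28.5% in sh3F replicates 1 and 2 and 30.3% and 33.9% in shControl replicates 1 and 2, which ranks the libraries as the cluster's sum does. The markers of neural progenitors summed to 20668 and 23366 CPM in sh3F and 23051 and 28098 CPM in shControl. Their order differs from that of the cluster in the middle libraries. Most of that sum is Fabp7, a fatty acid binding protein of radial glia. Of the 12 progenitor markers 0 passed in either direction. Their median log2 fold change was -0.23, and 10 of the 12 were below 0, against 51.1% of all genes. The 6 neuronal markers summed to 625 and 625 CPM in sh3F and 868 and 775 CPM in shControl, and Tubb3, Neurod6 and Nsg2 passed as lower. All 6 were below 0, with a median log2 fold change of -0.46, beside -0.36 for the cluster's members. Of 4 tested erythroid markers 1, Hbb-y, passed as higher, with sums of 39.0 and 37.0 CPM in sh3F and 24.3 and 27.2 CPM in shControl. Of 4 tested myeloid, 1 endothelial and 4 mesenchymal markers 0 passed. With edgeR 1.37% of all tested genes passed, so 0 in lists this short does not set them apart. Below 0 were 0 of 4 erythroid, 2 of 4 myeloid, 0 of 1 endothelial and 2 of 4 mesenchymal markers. The myeloid list summed to 33.2 and 26.8 CPM in sh3F and 28.6 and 32.6 CPM in shControl, with overlap. The part of mitochondrial share, cell types or 1 library in the cluster's lower level was not tested. In these bulk samples fewer cells that express a gene and less RNA per cell cannot be told apart. Where the library size was taken without the mitochondrially encoded genes, 4 members passed as lower (Zfp968, Zfp965, Gm14435 and Zfp971) and the summed log2 ratio was again -0.41.

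Other zinc-finger genes gave values closer to those of all genes. Of the 414 C2H2 genes outside the interval, recognised by symbol, 358 were tested. Against 1.37% of all tested genes, 0 of these passed in either direction with edgeR. At an unadjusted p under 0.05, 15 of them were lower and 10 higher, and with DESeq2 0 passed as well. Their median log2 fold change was -0.04, and 55.9% were below 0. Both sh3F libraries were below both control libraries in 80. With the list drawn instead by at least 5 fingers in the coding sequence, 396 were tested and 1 passed as lower, Peg3, an imprinted gene, with a log2 fold change of -0.70 ± 0.16 (SE). The 178 tested genes of that list with the KRAB pattern had a median of -0.05. Runs of clustered zinc-finger genes elsewhere had median log2 fold changes of 0.10 on chromosome 13 (25 tested), -0.15 and -0.08 on chromosome 17 (23 and 13 tested) and 0.14 on chromosome 4 (8 tested). The 5 runs on chromosome 7 had medians of 0.05, -0.07, -0.11, 0.23 and -0.09 (12, 10, 14, 8 and 11 tested). In the chromosome 17 run with 23 tested genes, 20 or 87.0% were below 0, a share like the 26 of 30 (86.7%) among the members, and both sh3F libraries were below both control libraries in 5 of the 23. The chromosome 4 run shares much of its sequence too, with a median of 69.8% of 31-mers in another gene. Whether the members differ from these lists beyond the spread of the libraries was not tested.

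**Figure D5:**
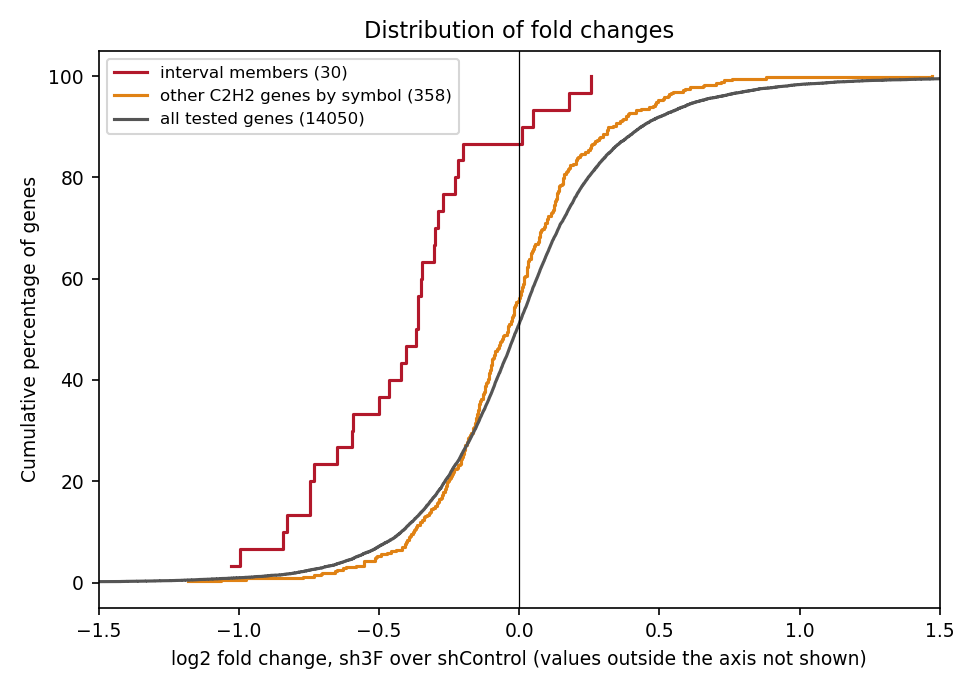
Cumulative percentage of genes by log2 fold change, sh3F over shControl, for the 30 tested members, the 358 other C2H2 genes recognised by symbol and all 14050 tested genes. The curve of the members lies to the left, with its median at -0.36, against -0.04 for the other C2H2 genes and -0.01 for all genes.

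Few neighbours of the cluster could be tested. Of the 16 protein-coding genes within 1 Mb of either edge, 8 were tested and 0 passed with edgeR or DESeq2, and 1 had an unadjusted p under 0.05. With edgeR 1.37% of all tested genes passed, so 0 of 8 does not set the neighbours apart from other genes. Gnas, the imprinted gene of a stimulatory G protein subunit on the proximal side, had 240.0 and 212 CPM in sh3F and 272 and 215 CPM in shControl. Phactr3, a regulator of phosphatase and actin on the distal side, had 5.80 and 7.03 CPM in sh3F and 11.0 and 9.15 CPM in shControl, without overlap. Its log2 fold change was -0.66 ± 0.20 (SE), with an adjusted p of 0.084 from edgeR. Both were named after their values were seen. The median of the 8 was -0.10.

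The proteins that work with the KRAB domain were measured by a list of 27 genes, of which 26 were tested and 0 passed with edgeR or DESeq2. At an unadjusted p under 0.05, 0 were lower and 1 higher. With edgeR 1.37% of all tested genes passed, so 0 of 26 does not set these genes apart from other genes. Trim28, the KRAB corepressor, had 46.2 and 46.0 CPM in sh3F and 43.4 and 41.2 CPM in shControl. Setdb1, its methyltransferase, had 12.7 and 12.8 CPM in sh3F and 11.51 and 11.03 CPM in shControl. In both genes the sh3F libraries were above the control libraries, by 0.12 ± 0.14 and 0.17 ± 0.18 on the log2 scale (SE). Both sh3F libraries were above both control libraries in 6 of the 26 and below in 6, against 19.6% and 21.7% of all genes. The median of the 26 was -0.06.

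The 3 targeted genes, which check the labels, had lower values in sh3F, and none passed the test. Phf21b had 5.48 and 6.44 CPM in sh3F and 7.24 and 7.35 CPM in shControl, a log2 fold change of -0.29 ± 0.22 (SE). Zfp57 had 10.7 and 9.31 CPM in sh3F and 14.6 and 11.8 CPM in shControl, a log2 fold change of -0.40 ± 0.18 (SE). Zfp7 had 1.97 and 0.976 CPM in sh3F and 1.67 and 2.25 CPM in shControl, with overlapping groups. The adjusted p-values from edgeR were 0.644 for Phf21b, 0.341 for Zfp57 and 0.80 for Zfp7. The cluster's values are therefore those of the libraries labelled sh3F, whose RNA shows no called reduction of a target.

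The calls depended on the scaling and on single libraries more than the sum did. With library size alone in place of TMM factors, 0 members passed, and the median of the members was -0.28 while that of all genes moved to 0.07. With DESeq2, Zfp965 and Zfp971 passed. Without sh3F replicate 1 only Gm2026 passed, and without sh3F replicate 2 only Zfp965 and Zfp971. Without shControl replicate 1, 14 members passed as lower, and without shControl replicate 2, 5 (Zfp968, Zfp965, Gm6710, Gm14325 and Zfp971). The log2 ratio of the sum ran from -0.56 to -0.25 over these 4 fits.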

How the data were processed

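Estimated counts per Ensembl gene, without normalization, are what the authors deposited, in 1 table for all 4 libraries. The submitters' processing notes name Salmon and the builds GRCm38 and mm10. The version of Salmon, the annotation it used and how transcripts became genes are not stated in those sources. Per the labels' protocols total RNA and an NEBNext Ultra II kit were used, and nothing says whether strand was kept. Library totals were 17901386 and 15170491 in sh3F and 20779211 and 14694387 in shControl.

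Counts were rounded to whole numbers and tested with edgeR 4.0.16 (R 4.3.3): TMM, filterByExpr with a minimum count of 10, the quasi-likelihood F test (robust, two-sided) of sh3F over shControl, adjusted by Benjamini-Hochberg over 14050 genes with a threshold of 0.05. SE is the size of the log2 fold change divided by the square root of F. The script was tested on simulated data. Positions, transcripts, 31-mers and translated coding sequences came from GENCODE M21, which matched 34652 of the 34866 identifiers, and promoters from RefSeq (GRCm38.p6). No protein table was used, so other C2H2 genes were taken by symbol (Zfp, Znf, Zkscan or Zscan plus a number).

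The members and the lists (other C2H2 genes, flanks, KRAB partners, cell markers) were chosen with earlier results of these data known. Members were named by rule (called; extreme in fold change, level or shared 31-mers), and the rest by group of similar sequence. Alternatives were DESeq2 1.42.0, its size factors, library size alone, 3 other filters, limma-voom (limma 3.58.1), a replicate block and each library left out. The size without mitochondrial genes, the list by fingers, the loose KRAB pattern and the search for CCAAT were added after seeing the data. The stretch ccaatcaga was not among the motifs set beforehand.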

Additional observations from a re-analysis of the deposited data

How the results depend on the processing

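The summed log2 ratio of the members stayed below 0 in all alternatives run, from -0.56 to -0.25, and the median fold change of the tested members from -0.56 (without shControl replicate 1) to -0.27. Calls held less well. Against 6 members lower, library size alone gave 0, DESeq2 2, and leaving out each library 1 to 14. Among the 3 members sharing 50% or less of their 31-mers the count was 0, as none of them is among the 6. Leaving a group with 1 library, the fit takes that library to vary like the other group. For all genes, against 76 higher and 116 lower, DESeq2 gave 30 higher and 39 lower, library size alone 28 lower, and leaving out each library 28 to 281 higher and 17 to 335 lower. For other C2H2 genes the counts were 0 to 4 higher (Zfp457, Zfp953, Zfp738 and Zfp516) and 0 to 3 lower (Zfp428, Zfp433 and Zfp740), the upper ends without shControl replicate 2, and 1 lower with the list by fingers; for flanking genes 0 to 1 lower (Phactr3). With 1 library left out, signs turned for Gm14308 (-0.19 to 0.86), Gm14322 (-0.13 to 0.23), Gm4631 (-0.16 to 0.17), Zfp969 (-0.74 to 0.47) and Zfp970 (-0.61 to 0.21), and with limma-voom for Gm4631 (-0.0035). The cause was not tested. The labels do not say what a replicate number shares, and same-numbered libraries deviated with a correlation of -0.03; with the replicate block 6 members were lower, the same 6, and for all genes 75 were higher and 97 lower. Summed levels have no value of their own under DESeq2, limma-voom or the block.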
